A study of Mus musculus with 6 samples.

Results

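The insulin-like growth factor (IGF) system was examined in C2C12 cells, a mouse myoblast line, through 10 genes taken by name. They are the ligand genes Igf1 and Igf2, the receptor genes Igf1r and Igf2r, and the binding protein genes Igfbp2, Igfbp3, Igfbp4, Igfbp5, Igfbp6 and Igfbp7. Of these 10 genes, 7 were analysed, with 11 transcripts, out of 11853 genes and 23959 transcripts in the data set. Igf1, Igf2 and Igfbp3 were not analysed here. C2C12 cells had been transfected with NC siRNA (siNC, 3 libraries) or with CNN3 siRNA (siCNN3, 3 libraries), and all were placed in horse serum for differentiation. CNN3 siRNA targets calponin 3, an actin-binding protein. The labels do not state whether the libraries came from separate cultures, so p-values measure the spread between libraries, which may be technical.

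IGF1 and IGF2 are secreted growth factors that act through the tyrosine kinase receptor encoded by Igf1r, which signals by way of insulin receptor substrates, PI3K, AKT and mTOR. The receptor encoded by Igf2r carries no kinase: it takes up IGF2 for degradation and sorts lysosomal enzymes that bear mannose 6-phosphate. The binding proteins hold IGFs outside the cell and set how much ligand reaches the receptors. In cultured myoblasts IGF signaling promotes proliferation as well as differentiation, and IGF2 and IGFBP5 are known products of differentiating muscle cells.

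The deposited values are FPKM (fragments scaled by transcript length and by the fragments mapped in a library), so that levels can be compared between genes. The depth of the libraries is unknown and counting error cannot be given. The library of siNC replicate 1 stood apart, with 8.87% of all deposited transcripts listed at 0, compared with 4.07% to 5.55% in the other 5 libraries. A value of 0 can be a failed estimate. Cnn3 was listed at 62.8, 61.4 and 62.8 FPKM with siNC, against 19.04, 39.2 and 25.6 FPKM with siCNN3. Each siCNN3 library was below the siNC libraries, with a mean of 44.8% of theirs, but at a log2 fold change of -1.19 Cnn3 did not pass the threshold (limma adjusted p = 0.0666). The labels call the cells myotubes, and the markers of differentiated muscle ranged widely in level. In siNC, Des, encoding desmin, was at 113 to 125 FPKM, Acta1, skeletal muscle actin, at 24.6 to 33.8 FPKM and Tnnt3, a fast troponin T, at 7.43 to 10.4 FPKM, while Myog was at 1.23 to 3.07 FPKM, Myh3 at 1.96 to 3.04 FPKM and Ckm, muscle creatine kinase, at 0.414 to 0.911 FPKM. The summed FPKM of 11 myoblast and myotube markers was 158 to 181 in siNC and 108 to 123 in siCNN3, most of it from Des. Of the 10 tested ones, 3 (Acta1, Tnnt3 and Myh3) were called lower, and for 9 siCNN3 lay below siNC without overlap. Only Myf5, a factor of myoblasts, had a log2 fold change above 0 among the tested ones, at 3.55, 5.64 and 4.84 FPKM with siNC, against 12.95, 11.4 and 5.40 FPKM with siCNN3 (log2 fold change 0.88, limma adjusted p = 0.238). A list of 10 interferon response genes, of which 7 were called higher, summed to 24.6 to 392 FPKM in siNC and to 1720 to 3545 FPKM in siCNN3. Of blood and immune markers, 3 of 7 were in the table, with sums of 151 to 425 FPKM in siNC and 34.4 to 46.1 FPKM in siCNN3, nearly all from the hemoglobin genes Hba-a1 and Hbb-bs. Of these 3, Hbb-bs was called lower (log2 fold change -3.27, limma adjusted p = 0.0266), and the groups did not overlap for any of them, with siCNN3 below siNC. Over all tested genes, 2.07% were called in either direction, and the groups did not overlap for 23.1%. Of 4 endothelial markers only Tek was in the table, at up to 1.37 FPKM, and of 4 hepatocyte markers only Apoa1, at 9.16 FPKM in siNC replicate 1 and up to 0.761 FPKM in the other libraries. No adipocyte marker was analysed here. The part of these differences in the results on the IGF system was not tested. In bulk RNA, fewer cells of a type and less RNA per cell cannot be told apart.

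Stretches of coding sequence tell apart the transcripts on which the Igfbp4 and Igfbp7 values depend. They are from GENCODE transcripts of the mouse build GRCm38. In both Igfbp4 transcripts the capitals mark 70 coding bases at the end of the first exon, which Igfbp4-201 and Igfbp4-204 do not share, followed by the start of exon 2 that they do. For Igfbp4-204 these are all of its coding bases in that exon, from the start codon on. For Igfbp4-201 they are only the last of them, so that the leading ATG is not its start codon, and the short transcript Igfbp4-205 holds them too. The capitals of Igfbp4-201 lie at chr11:99041776-99041845 and those of Igfbp4-204 at chr11:99047334-99047403, both on the plus strand. In Igfbp7-202 they mark a coding exon of 93 bases, at chr5:77401487-77401579 on the minus strand, that Igfbp7-201 skips.
Igfbp4-201: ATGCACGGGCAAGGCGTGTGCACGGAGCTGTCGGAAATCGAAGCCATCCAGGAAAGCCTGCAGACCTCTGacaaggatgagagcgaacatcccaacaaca
Igfbp4-204: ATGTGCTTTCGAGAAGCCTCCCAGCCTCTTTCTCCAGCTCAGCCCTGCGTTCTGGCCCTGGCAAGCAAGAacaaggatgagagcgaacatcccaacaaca
Igfbp7-202: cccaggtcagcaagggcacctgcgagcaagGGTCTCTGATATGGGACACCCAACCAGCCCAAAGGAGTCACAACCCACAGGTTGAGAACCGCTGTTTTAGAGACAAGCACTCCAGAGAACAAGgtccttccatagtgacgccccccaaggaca

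To order the genes by level, mean FPKM over the 6 libraries were compared. Igfbp6, which encodes a binding protein with a preference for IGF2, was the most abundant at 219.5 FPKM, above 98.1% of the 11611 genes tested. Igfbp7 followed at 60.4 FPKM, Igfbp2 at 49.8 FPKM, Igfbp4 at 28.0 FPKM and Igfbp5 at 25.7 FPKM. Igf1r was at 9.33 FPKM, near the middle of all tested genes (above 48.0% of them), and Igf2r was at 1.39 FPKM (above 8.30%). The lowest Igfbp6 library (169 FPKM) lay above every library of the other genes, and the highest Igf2r library (1.82 FPKM) below every library of the others. From Igfbp7 down to Igf1r the ranges of each pair of neighbours in this order overlapped, so neighbours were not separated beyond their spread. For Igfbp5 and Igf1r the overlap came from siCNN3 replicate 3 alone, with Igfbp5 at 6.17 FPKM and Igf1r at 7.61 FPKM. Genes further apart in the order could be separate: every Igfbp7 library (48.3 to 72.1 FPKM) lay above every Igfbp4 library (18.2 to 33.8 FPKM).

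Between siCNN3 and siNC, 0 of the 7 genes passed the threshold of an adjusted p below 0.05 (limma on log2(FPKM + 1), Benjamini-Hochberg adjustment over all tested genes), where 2.07% of all tested genes did. At an unadjusted p below 0.05 there was 1 of the 7, Igfbp2, compared with 16.1% of all tested genes. The groups did not overlap for 2 of them, Igf1r and Igfbp7, compared with 23.1% of all tested genes. The median log2 fold change was -0.23 over the 7 genes and 0.03 over all tested genes. Fold changes on this scale understate those of genes with low FPKM. An exact permutation test of 3 libraries against 3 cannot give a p below 0.1.

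**Figure D1:**
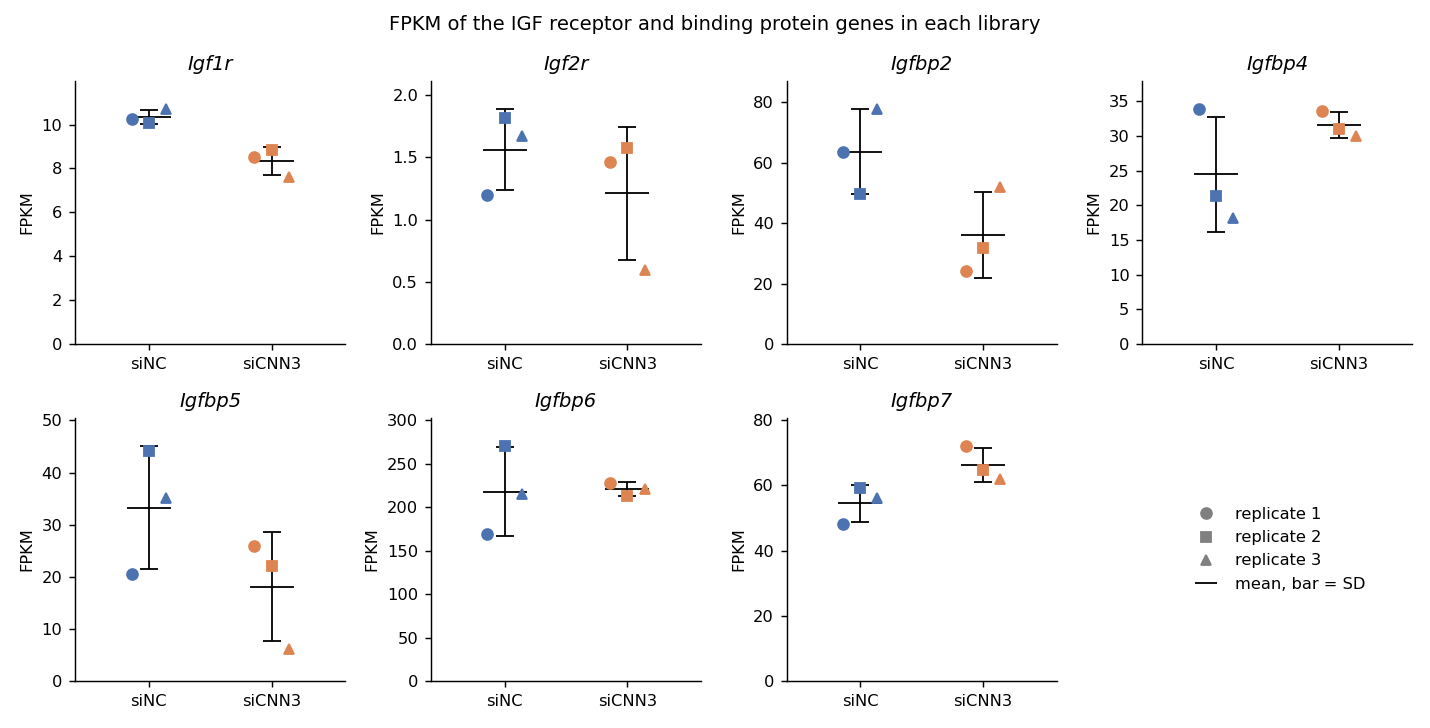
FPKM (vertical axes, each from 0) of the 7 analysed genes in each library of siNC (blue) and siCNN3 (orange), with replicate numbers as symbols and the mean with its SD in black. Only Igf1r and Igfbp7 have groups that do not overlap, while replicate 3 of siCNN3 (6.17 FPKM for Igfbp5 and 0.598 FPKM for Igf2r) lies far below the other siCNN3 libraries.

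Igf1r, the signaling receptor, lies on the plus strand of chromosome 7 (67952827 to 68233668) and was measured by 1 transcript of 21 exons. It was listed at 10.2, 10.1 and 10.7 FPKM with siNC, against 8.55, 8.83 and 7.61 FPKM with siCNN3. All siCNN3 libraries were below all siNC libraries, and the libraries of a group were close together, with an SD of 3.06% of the mean in siNC and 7.68% in siCNN3. The siCNN3 mean was 80.5% of the siNC mean, and the log2 fold change was -0.28 (SE 0.127, 95% interval -0.58 to 0.02, limma adjusted p = 0.332). The two-sided exact permutation p was 0.1, the smallest that 3 libraries against 3 allow.

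Igf2r, on the minus strand of chromosome 17 (12682406 to 12769664, 1 transcript of 48 exons), was near the bottom of the measured range. Its values were 1.20, 1.82 and 1.67 FPKM with siNC, against 1.47, 1.57 and 0.598 FPKM with siCNN3. The groups overlapped, and siCNN3 replicate 3 was less than every other library. The log2 fold change was -0.23 (95% interval -0.79 to 0.32, limma adjusted p = 0.666), and -0.02 without siCNN3 replicate 3 (limma adjusted p = 0.964). The ratio of Igf1r to Igf2r, 2 levels per length, ranged from 5.55 to 8.56 in siNC and from 5.61 to 12.7 in siCNN3.

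Igfbp2 and Igfbp5 are neighbours on chromosome 1 that point at each other, with 5457 bases between their ends (72824503 to 72852474 on the plus strand for Igfbp2, 72857932 to 72874884 on the minus strand for Igfbp5). IGFBP2 carries an integrin-binding motif besides its IGF-binding domains, and IGFBP5 also binds the extracellular matrix. Of the 7 genes, these 2 had the largest differences on the log2 scale, both with a lower mean in siCNN3, but the siCNN3 library with the most Igfbp2 had the least Igfbp5.

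Igfbp2 was listed at 63.5, 49.7 and 77.6 FPKM with siNC, against 24.3, 31.8 and 51.8 FPKM with siCNN3. Only the highest siCNN3 library (replicate 3) reached into the siNC range, just past the lowest siNC library (replicate 2). The mean was 63.6 ± 13.98 FPKM (SD, n = 3) with siNC and 36.0 ± 14.2 FPKM with siCNN3 (SD, n = 3), or 56.5% of that with siNC. The log2 fold change was -0.85 (SE 0.291, 95% interval -1.54 to -0.16, unadjusted p = 0.0225, limma adjusted p = 0.216). Igfbp2 was called lower only without siCNN3 replicate 3 (log2 fold change -1.14, limma adjusted p = 0.0461). In that setting 162 genes were called lower over all tested genes in place of 39. With each of the other 5 libraries left out, the limma adjusted p of Igfbp2 was 0.248 to 0.530. Its difference was larger in size than that of all but 5.24% of tested genes.

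Most of the Igfbp2 signal was assigned to Igfbp2-201, the transcript of 1307 bases with the complete coding sequence. This transcript was at 59.4, 49.2 and 76.7 FPKM with siNC, against 21.6, 29.4 and 48.0 FPKM with siCNN3, so that on its own the groups did not overlap (log2 fold change -0.93, adjusted p = 0.357 over 21668 tested transcripts, limma). Igfbp2-202, which starts downstream and has a shorter coding sequence, made up 0.980% to 6.49% of the gene in siNC and 7.36% to 10.9% in siCNN3. Its FPKM were 4.12, 0.487 and 0.949 in siNC and 2.64, 2.38 and 3.81 in siCNN3. They overlapped through siNC replicate 1, the highest library of all.

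Igfbp5 was the most variable of the 7 genes. It was listed at 20.6, 44.1 and 35.02 FPKM with siNC, against 26.0, 22.0 and 6.17 FPKM with siCNN3, a 7.15-fold range over the 6 libraries. The groups overlapped because siNC replicate 1 was below 2 of the siCNN3 libraries. The mean was 33.3 ± 11.9 FPKM (SD, n = 3) with siNC and 18.05 ± 10.5 FPKM with siCNN3 (SD, n = 3), or 54.3% of that with siNC. Its log2 fold change of -0.99 was not separated from 0 (SE 0.528, 95% interval -2.24 to 0.26, limma adjusted p = 0.406). Without siCNN3 replicate 3 it was -0.40 (limma adjusted p = 0.472), and over every library left out in turn it stayed below 0. The ratio of Igfbp2 to Igfbp5 was 3.08, 1.13 and 2.22 in siNC and 0.936, 1.44 and 8.39 in siCNN3, with both extremes among the siCNN3 libraries.

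Among 8186 other genes whose mean reached 5 FPKM, those whose pattern over the 6 libraries lay closest to that of Igfbp5 were mt-Nd4l, mt-Nd4 and Bok. The root mean square difference from Igfbp5 on the log2 scale was 0.26, 0.32 and 0.34, where each gene was set relative to its own mean. The mitochondrial genes mt-Nd4l and mt-Nd4 encode subunits of respiratory complex I. mt-Nd4l was at 524, 927 and 738 FPKM with siNC, against 453, 465 and 216 FPKM with siCNN3, with its highest library in siNC replicate 2 and its lowest in siCNN3 replicate 3, as for Igfbp5. Such likeness follows from the choice of the closest genes over these same libraries and carries no test.

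**Figure D2:**
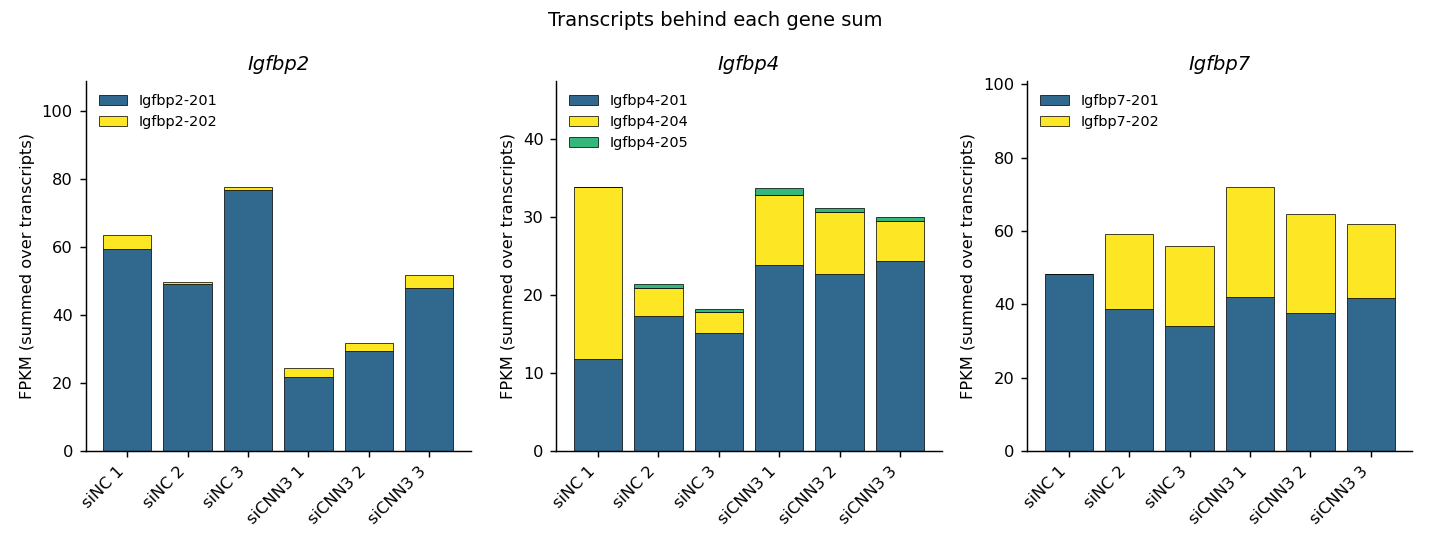
FPKM of the transcripts of Igfbp2, Igfbp4 and Igfbp7 (stacked bars, summing to the gene value) in each library. In siNC replicate 1 most of Igfbp4 is assigned to Igfbp4-204 (65.1%) and almost none of Igfbp7 to Igfbp7-202 (0.00848%), unlike the other libraries.

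Igfbp4 (chromosome 11, 99041244 to 99054392, plus strand) encodes a binding protein that mainly restrains IGF action and is cleaved by the protease PAPP-A. As a gene it was listed at 33.8, 21.4 and 18.2 FPKM with siNC, against 33.6, 31.0 and 29.9 FPKM with siCNN3. The siCNN3 libraries were close together and above siNC replicates 2 and 3, but siNC replicate 1 was above all of them. The log2 fold change was 0.40 (SE 0.224, 95% interval -0.13 to 0.93, limma adjusted p = 0.431). It was 0.65 without siNC replicate 1 (limma adjusted p = 0.106) and 0.22 without siNC replicate 3 (limma adjusted p = 0.757).

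The transcripts differed in how they were spread over siNC replicate 1. Igfbp4-201, with 3831 bases and the longest coding sequence (762 bases), was at 11.8, 17.3 and 15.1 FPKM with siNC, against 23.8, 22.7 and 24.3 FPKM with siCNN3. Every siCNN3 library was thus above every siNC library, and the siCNN3 mean was 160% of that in siNC. The log2 fold change was 0.66 (SE 0.165, 95% interval 0.26 to 1.06, unadjusted p = 0.0068, adjusted p = 0.217 over all tested transcripts, limma), so it was not called. With each library left out in turn, the log2 fold change of Igfbp4-201 ranged from 0.52 to 0.78 and its adjusted p from 0.211 to 0.534. Igfbp4-204, which begins with its own exon in place of the first exon of Igfbp4-201, was at 22.0, 3.58 and 2.64 FPKM with siNC, against 8.97, 7.99 and 5.11 FPKM with siCNN3. In siNC replicate 1 it took 65.1% of the gene, compared with 14.5% to 26.7% in the other 5 libraries. Of its 742 bases, 87.5% are shared with Igfbp4-201, and only the first exon shown above, 93 bases with its untranslated part, sets it apart.

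Of the 10 tested transcripts of the 7 genes, 0 were called, where 0.540% of all tested transcripts were. The groups did not overlap for 3 transcripts (Igf1r-201, Igfbp2-201 and Igfbp4-201), compared with 17.9% of all tested transcripts. Igfbp4-205 had a mean below 0.5 FPKM and was not tested.

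Igfbp6 (chromosome 15, 102144362 to 102149511, plus strand) was measured by 1 transcript of 1112 bases. It was listed at 169, 271 and 215 FPKM with siNC, against 228, 213 and 222 FPKM with siCNN3. The siCNN3 libraries lay within the siNC range, with an SD of 3.54% of the mean compared with 23.4% in siNC. The means were 218.2 ± 51.1 FPKM and 220.9 ± 7.83 FPKM (SD, n = 3 each), and the log2 fold change was 0.04 with a 95% interval of -0.36 to 0.45 (limma adjusted p = 0.932). Its sign was not stable, at -0.13 without siNC replicate 1 and -0.094 after quantile normalization.

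Igfbp7 (chromosome 5, 77349240 to 77408041, minus strand) encodes a secreted protein of the family with low affinity for IGFs. It was listed at 48.3, 59.2 and 56.0 FPKM with siNC, against 72.1, 64.8 and 61.8 FPKM with siCNN3. Every siCNN3 library was above every siNC library, though the nearest libraries were close, at 59.2 and 61.8 FPKM. The siCNN3 mean was 122% of the siNC mean, and the log2 fold change was 0.28 (SE 0.124, 95% interval -0.01 to 0.57, limma adjusted p = 0.331). The two-sided exact permutation p was 0.1, the smallest allowed.

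The split of Igfbp7 between its transcripts turned on siNC replicate 1, where nearly all of the gene was assigned to Igfbp7-201. This transcript was at 48.2, 38.8 and 34.1 FPKM with siNC, against 42.1, 37.5 and 41.7 FPKM with siCNN3, and its log2 fold change was 0.01 (95% interval -0.36 to 0.39, limma adjusted p = 0.982). Igfbp7-202, with the additional exon shown above, was at 0.00409, 20.4 and 21.9 FPKM with siNC, against 30.01, 27.2 and 20.1 FPKM with siCNN3. Its groups overlapped. The exon adds 31 codons without a shift of the reading frame, and the other 1107 bases of Igfbp7-202 are shared with Igfbp7-201. Apart from siNC replicate 1, Igfbp7-202 made up 32.5% to 42.1% of the gene in each library. Without siNC replicate 1, the log2 fold change was 0.15 for Igfbp7-201 (limma adjusted p = 0.728), 0.26 for Igfbp7-202 (limma adjusted p = 0.718) and 0.20 for the gene (limma adjusted p = 0.475).

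**Figure D3:**
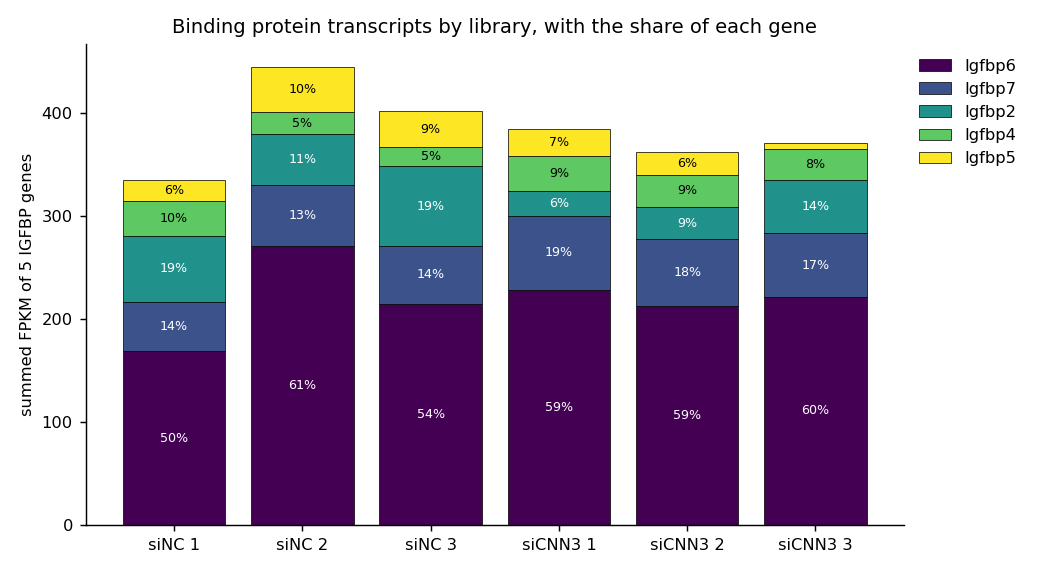
Summed FPKM of the 5 binding protein genes in each library (stacked bars), with the share of each gene printed where it is at least 10 FPKM high. Igfbp6 makes up 50.4% to 60.8% of the sum in all libraries, and the share of Igfbp7 is larger in each siCNN3 library than in any siNC library.

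To describe the binding proteins together, their FPKM were summed. The sum was 335, 445 and 402 FPKM with siNC, against 384, 362 and 371 FPKM with siCNN3, and the groups overlapped. Igfbp6 alone was 50.4% to 60.8% of it. Without Igfbp6, the sum was 166.2, 174.4 and 186.8 FPKM with siNC, against 155.9, 149.6 and 149.7 FPKM with siCNN3, with each siCNN3 library below each siNC library. Igfbp7 took 13.3% to 14.4% of the full sum in siNC and 16.6% to 18.8% in siCNN3. Igfbp2 took 11.2% to 19.3% in siNC and 6.32% to 13.95% in siCNN3, and Igfbp5 took 6.16% to 9.92% and 1.66% to 6.76%. The ratio of Igfbp4 to Igfbp2 was 0.533, 0.431 and 0.234 in siNC and 1.38, 0.977 and 0.578 in siCNN3, again without overlap. Each of these genes overlapped on its own, and a ratio combines their opposite log2 fold changes (0.40 and -0.85). The ratios of Igfbp2 to Igfbp5 and of Igf1r to Igf2r overlapped. Among single genes, the groups did not overlap for 23.1% of all tested ones. These sums and ratios are descriptions of genes chosen by name, with earlier results known, and carry no test.

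**Figure D4:**
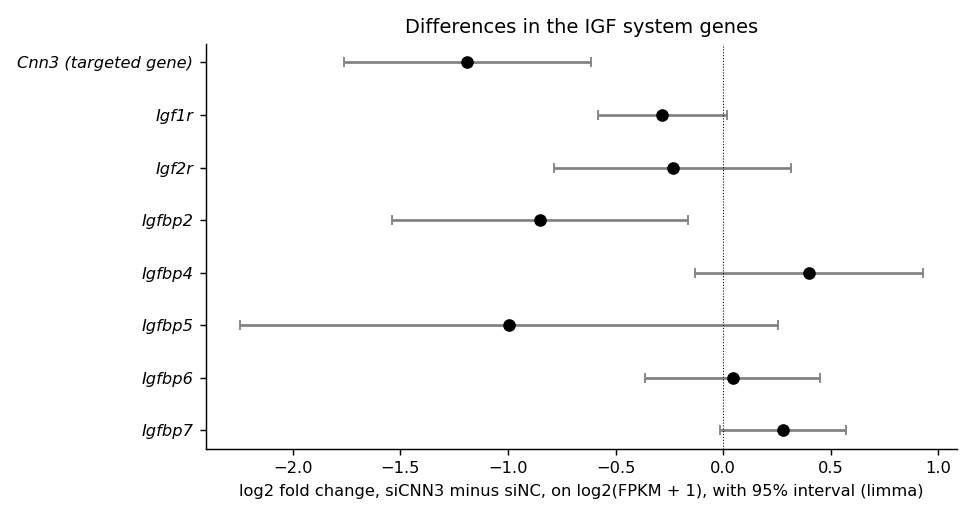
Log2 fold changes (siCNN3 minus siNC, on log2(FPKM + 1)) of Cnn3 and the 7 genes, with 95% intervals from limma that are not adjusted for the number of genes. Among the 7 genes only the interval of Igfbp2 (-1.54 to -0.16) leaves out 0, and that of Igfbp5 is the widest.

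Around these genes, 76 genes of the IGF pathway were listed, of which 60 were tested. By limma 1 of the 60 was called (1.67%, compared with 2.07% of all tested genes), and the groups did not overlap for 13 of them (21.7%, compared with 23.1%). Of the 60, 24 had a log2 fold change above 0 and 36 below.

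Of genes that cleave binding proteins or hold such proteases in check, 10 were tested and 0 were called, with a median log2 fold change of -0.15. Stc2, which encodes stanniocalcin 2, an inhibitor of PAPP-A, was at 1.17, 1.21 and 1.35 FPKM with siNC, against 4.73, 4.47 and 2.18 FPKM with siCNN3. Its groups did not overlap, and the difference was 1.05 on the log2 scale (SE 0.249, limma adjusted p = 0.096). It was called higher without siCNN3 replicate 3 (limma adjusted p = 0.009), a setting in which 446 genes were called higher over all tested genes in place of 201. With each of the other 5 libraries left out, its limma adjusted p was 0.190 to 0.329. Pappa, which encodes PAPP-A itself, was at 0.389 to 0.773 FPKM in siNC and at 0.408 to 0.547 FPKM in siCNN3. Htra1, the most abundant serine protease gene of the list, was at 136, 116 and 133 FPKM with siNC, against 138, 158 and 180 FPKM with siCNN3 (log2 fold change 0.30, limma adjusted p = 0.317). The other large differences of this list were those of Htra3 and Mmp2, with log2 fold changes of -0.60 and -0.35 (limma adjusted p = 0.561 and 0.429).

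Of 20 receptor adaptors and genes of PI3K and AKT, 0 were called, with a median log2 fold change of -0.04. The largest differences were those of Akt2, Ptpn1 and Irs1. Akt2, a kinase of insulin signaling, was at 21.2, 23.8 and 22.4 FPKM with siNC, against 11.3, 24.5 and 8.99 FPKM with siCNN3, so that siCNN3 replicate 2 stayed with the siNC libraries (log2 fold change -0.68, limma adjusted p = 0.372). Ptpn1, a phosphatase that dephosphorylates insulin and IGF1 receptors, and Irs1, an adaptor of both, had log2 fold changes of 0.43 and 0.38 (adjusted p = 0.434 for each, limma). The insulin receptor gene Insr was at 6.60, 5.57 and 6.70 FPKM with siNC, against 1.59, 5.70 and 6.49 FPKM with siCNN3. Only siCNN3 replicate 1 stood apart (log2 fold change -0.52, limma adjusted p = 0.565). Insl6 was the other tested gene of the insulin family, with a log2 fold change of 0.14 (limma adjusted p = 0.794).

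Of 19 genes of mTOR, S6K, 4EBP and FOXO, 1 was called higher and 0 lower. The called gene was Eif4ebp1, which encodes 4EBP1, a repressor of cap-dependent translation that mTOR inactivates. It was at 30.8, 32.5 and 35.2 FPKM with siNC, against 59.5, 59.8 and 57.2 FPKM with siCNN3. The groups were far apart relative to their spread, and the siCNN3 mean was 179% of the siNC mean. Eif4ebp1 rose by 0.82 on the log2 scale (SE 0.105, limma adjusted p = 0.0165). The call was lost on leaving out siNC replicate 3 or replicates 1 or 2 of siCNN3 (adjusted p = 0.0811, 0.0984 and 0.118, limma), and with a block for the replicate number (limma adjusted p = 0.092), while its log2 fold change in these fits was 0.81 to 0.87. Over all tested genes, the 201 called higher became 16, 39 and 28 with these libraries left out, and 62 with the block.

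The next largest differences of this list were those of Foxo4 and Rheb. Foxo4, a transcription factor that AKT keeps out of the nucleus, was at 15.9, 15.9 and 15.6 FPKM with siNC, against 8.54, 9.51 and 12.1 FPKM with siCNN3. Its groups did not overlap, with a difference of -0.62 on the log2 scale (SE 0.153, limma adjusted p = 0.107), and it was called lower without siCNN3 replicate 3 (limma adjusted p = 0.0308), where 162 genes were called lower over all tested genes in place of 39. With each of the other 5 libraries left out, the limma adjusted p of Foxo4 was 0.190 to 0.376. Rheb, the GTPase that activates mTOR, was at 34.1, 39.2 and 40.1 FPKM with siNC, against 53.3, 58.4 and 47.3 FPKM with siCNN3 (log2 fold change 0.47, limma adjusted p = 0.128). Of the partners of 4EBP1, the related repressor gene Eif4ebp2 and the cap-binding factor gene Eif4e had log2 fold changes of -0.40 and 0.30 (limma adjusted p = 0.187 and 0.231). Mtor itself was at 7.14, 9.40 and 8.33 FPKM with siNC, against 6.62, 8.05 and 6.99 FPKM with siCNN3, and its groups overlapped.

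Of 8 genes of mannose 6-phosphate sorting, the other route of Igf2r, 0 were called, with a median log2 fold change of -0.03. The largest differences were those of Gga3, Gga1 and Gnptg, with log2 fold changes of 0.49, -0.19 and 0.17 (adjusted p = 0.559, 0.564 and 0.745, limma). M6pr, the other mannose 6-phosphate receptor, was at 16.6 to 18.0 FPKM in siNC and at 16.7 to 20.3 FPKM in siCNN3, above Igf2r in every library. Igf2bp2, which encodes a protein that binds Igf2 mRNA, was at 9.30, 16.0 and 17.9 FPKM with siNC, against 11.4, 14.05 and 10.9 FPKM with siCNN3 (log2 fold change -0.19, limma adjusted p = 0.748).

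**Figure D5:**
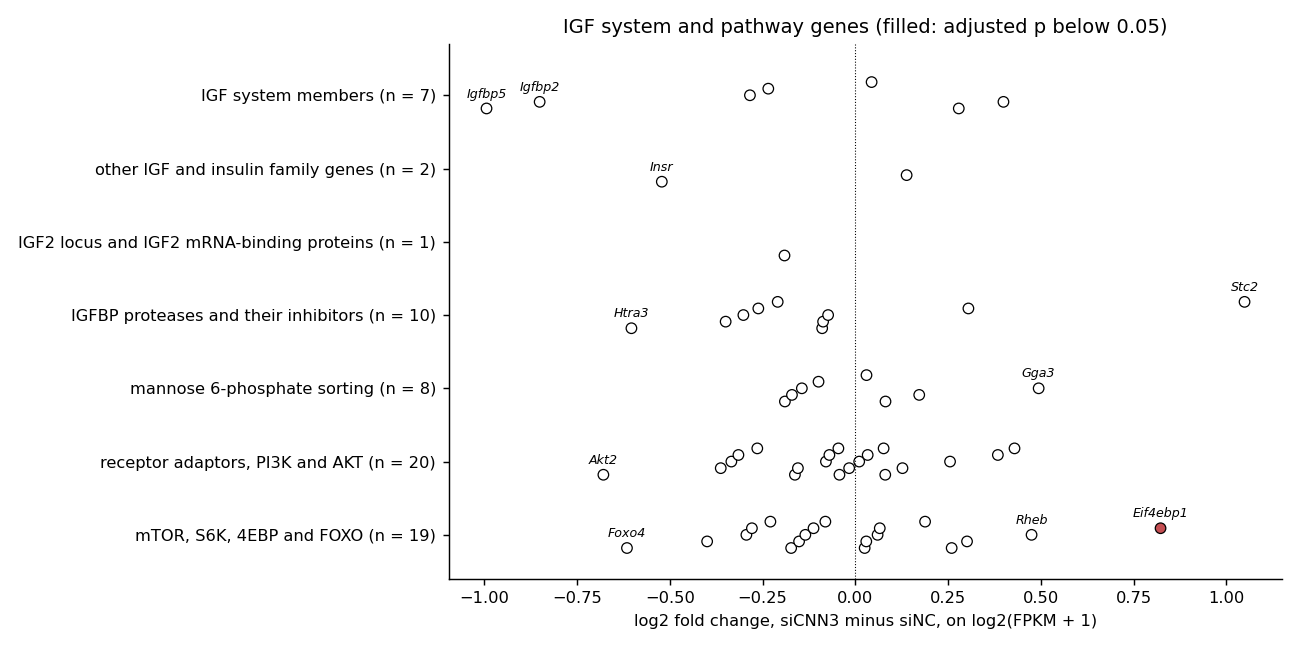
Log2 fold changes (horizontal axis, siCNN3 minus siNC, on log2(FPKM + 1)) of the 7 genes and of the 60 tested pathway genes by list, 1 point per gene with vertical offsets for legibility. The only filled point, with an adjusted p below 0.05, is Eif4ebp1 at 0.82.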

How the data were processed

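RNA of 3 siNC and 3 siCNN3 libraries was sequenced, and the authors deposited FPKM for 24023 Ensembl transcripts. The program that estimated them and its annotation are not given in the sources used here. The submitters' processing notes name Bowtie 0.12.2 and the builds mm8 and mm10, without their role. Identifiers were matched without version to GENCODE M21 (GRCm38) for 23959 transcripts, and the 64 others held 0.104% to 0.136% of the FPKM of a library. FPKM were summed per gene, so a gene value rests on how the authors' estimator split reads between transcripts.

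The 11611 genes whose mean reached 0.5 FPKM were fitted as log2(FPKM + 1) with limma 3.58.1 in R 4.3.3 (mean-variance trend, Benjamini-Hochberg adjustment over all genes, threshold 0.05), and the 21668 transcripts above the same limit likewise. The fit was also run on simulated data, with an outcome not given here. The genes and lists were chosen with earlier results of these data known. Named are the 10 genes, the targeted gene, called pathway genes, the 3 of each pathway list with the largest difference and the 3 genes closest to Igfbp5 in pattern. Other named genes (Htra1, Pappa, Eif4e, Eif4ebp2, Mtor, M6pr and the markers) were chosen after their values were seen. Alternatives were a pseudocount of 0.1, leaving out the filter or raising it to 5 FPKM, scaling by median of ratios, quantile normalization, no trend, a block for the replicate number, omission of each library and single transcripts. Depth is unknown.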

Additional observations from a re-analysis of the deposited data

How the results depend on the processing

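Depth is unknown, so no value has a counting error, and a gene sum depends on the split between transcripts. Over the alternatives run, Igf1r, Igf2r, Igfbp2 and Igfbp5 kept a log2 fold change below 0 and Igfbp4 and Igfbp7 one above 0, with limma adjusted p from 0.0461 to 0.982. Igfbp6 turned to -0.094 after quantile normalization and to -0.13 without siNC replicate 1, with a range of -0.13 to 0.21 over libraries left out. Igf2r has no value with the filter at 5 FPKM. The cause of these differences was not tested.

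With each library left out, the number of the 7 genes called lower was 0 to 1, the 1 being Igfbp2 without siCNN3 replicate 3. Over all genes, the 201 called higher became 16 (without siNC replicate 3) to 446 (without siCNN3 replicate 3), and the 39 called lower 4 to 162 with the same libraries left out. Pathway genes called higher numbered 0 to 2 and lower 0 to 1. Genes called lower numbered 63 when scaled by median of ratios and 93 after quantile normalization, and the share of higher among called genes was 83.8% as reported, 77.7% and 68.3%.

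Deviations from the group means correlated at -0.28 to 0.31 between libraries with the same number and at -0.45 to 0.44 between those with different numbers. These values cannot decide whether the numbers are pairs, because the deviations of 3 libraries sum to 0 in each group. The numbers were not taken as pairs in the main fit. With the replicate number as a block, 62 genes were called higher and 6 lower, 0 of them higher in the pathway lists, and the limma adjusted p of Igfbp2 was 0.185.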
